A study of Homo sapiens with 2 samples.

Results

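The 10 genes described here make long noncoding RNAs that are abundant in the nucleus or well known in cancer: MALAT1, NEAT1, NORAD, TUG1, PVT1, OIP5-AS1, MIR4435-2HG, CYTOR, MIR22HG and H19. They were chosen by name, and all 10 were found by symbol among the 58174 Ensembl genes of the deposited table. All 10 had a mean of at least 1 TPM, as did 15008 genes in all and 1704 of the genes that GENCODE 29 types as long noncoding RNA. TPM is a transcript abundance per transcript length, scaled so that all genes of a library sum to a fixed total.

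The samples were PC3 cells, an established human prostate cancer line, transfected with an siRNA against POH1 (1 library) or with a control siRNA (1 library). POH1, whose gene is PSMD14, is the deubiquitinase of the proteasome lid. The labels name neither the siRNA sequences nor the time after transfection. Each group held 1 library, so no error, test or p-value could be had, and each difference below is one between 2 libraries. The depth is unknown, since TPM keeps no read count. The RNA came from whole cultures, so fewer cells that express a gene and less of its RNA per cell cannot be told apart.

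Long noncoding RNAs are transcribed and often spliced like messenger RNAs but are not translated into a known protein. Some stay in the nucleus as scaffolds: NEAT1 builds paraspeckles, and MALAT1 gathers in nuclear speckles, the stores of splicing factors. Others act in the cytoplasm by binding proteins or microRNAs, as NORAD does with the Pumilio repressors, and some carry a microRNA within their own transcript. Several are p53 targets in other cells, and PC3 cells lack a working p53.

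The libraries were made with an mRNA kit, which selects RNAs by their poly(A) tail, so RNAs without a tail are counted in part at best. The finished 3′ ends of MALAT1 and of the long NEAT1 isoform bear on this limit. RNase P cuts them in front of a tRNA-like small RNA, and the end is then held in a triple helix of U-rich and A-rich tracts encoded in the gene. The 100 bases that end with the A-rich tract are shown, with T for U, from GENCODE 29 transcripts (GRCh38) of the plus strand of chromosome 11. The tract ends 353 bases before the end of the 8708-base MALAT1 transcript and at the end of the 22743-base NEAT1 transcript. Capitals mark a U-rich stretch that both RNAs share and the A-rich end.
MALAT1: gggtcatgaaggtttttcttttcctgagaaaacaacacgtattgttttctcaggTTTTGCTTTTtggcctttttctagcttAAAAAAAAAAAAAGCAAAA
NEAT1: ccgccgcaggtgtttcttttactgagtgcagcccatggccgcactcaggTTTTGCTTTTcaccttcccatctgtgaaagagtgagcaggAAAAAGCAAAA
Whether such an A-rich end was captured like a true tail cannot be told from these files, so levels of both RNAs are given with that limit.

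NORAD carries many copies of the motif that Pumilio proteins bind, TGTANATA (U for T in the RNA). Its single GENCODE 29 transcript of 5339 bases, from the minus strand of chromosome 20, holds 15 of them on the sense strand, with no overlap between them. They were TGTATATA at 10 sites, TGTAAATA at 4 and TGTACATA at 1. The sites printed were selected from the 15 to show repeated surroundings, and each has its own motif in capitals. In sites 4 and 12 the lower-case bases also hold the next motif, that of sites 5 and 13.
NORAD site 2: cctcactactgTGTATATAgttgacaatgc
NORAD site 4: ttacttatctgTGTATATAgtgtacataaa
NORAD site 11: caaccctactgTGTATATAgcggacaaact
NORAD site 12: ttactgtgctgTGTATATAgtgtatataag
NORAD site 3: aaatcacatttTGTAAATAcctttttgtta
NORAD site 6: aaataccacttTGTAAATAtctttttgcta
Among the 4050 genes whose longest transcript was between 4339 and 6339 bases, 41.7% held at least 1 match and the median was 0. Of these genes, 3, with NORAD among them, held 15 or more. The longest transcripts of NEAT1, TUG1 and OIP5-AS1 held 6, 2 and 1 matches, and those of the other six members held none. A match is a run of letters, not a measured binding site.

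MIR22HG, H19, CYTOR and MIR4435-2HG lie over microRNA genes, whose mature sequences are shown from RefSeq (GRCh38.p14) with the seed, bases 2 to 8, in capitals. No 2 of the distinct sequences have the same seed. miR-22 is encoded on the minus strand of chromosome 17 in an exon of MIR22HG, and miR-675 on the minus strand of chromosome 11 in an exon of H19. miR-4435 comes from 2 loci on chromosome 2 with 1 mature sequence, in an exon of CYTOR on the plus strand and within the MIR4435-2HG gene on the minus strand.
hsa-miR-22-5p: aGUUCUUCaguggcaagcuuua
hsa-miR-22-3p: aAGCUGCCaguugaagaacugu
hsa-miR-675-5p: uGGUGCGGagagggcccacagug
hsa-miR-675-3p: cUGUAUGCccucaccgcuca
hsa-miR-4435: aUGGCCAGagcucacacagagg

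CYTOR and MIR4435-2HG are copies on chromosome 2 that share near-identical stretches, and this limits how far reads can be told apart between them. Only shorter transcripts were aligned, which left out the longest of each gene (7512 and 3565 bases). The best alignment among them, between transcripts of 772 bases (CYTOR-207) and 759 bases (MIR4435-2HG-217), matched 750 of 759 bases (98.8%) with no gap. A stretch of 120 bases is shown, bases 146 to 265 of each, in which the 3 differences are in capitals. It holds the most differences of any stretch of its length in this alignment.
CYTOR: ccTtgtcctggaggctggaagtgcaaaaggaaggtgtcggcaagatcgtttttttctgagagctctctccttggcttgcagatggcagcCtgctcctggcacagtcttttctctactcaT
MIR4435-2HG: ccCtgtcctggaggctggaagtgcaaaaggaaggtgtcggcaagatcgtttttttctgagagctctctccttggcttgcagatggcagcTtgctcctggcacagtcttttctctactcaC

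As for the series as a whole, PSMD14 was at 35.1 TPM in the POH1 siRNA library and 50.9 TPM in the control library, so 69.0% of its transcript level remained. On the log2(TPM + 1) scale used below, PSMD14 differed by -0.52, which lay within 1.5-fold. All 8 epithelial and PC3 markers listed (such as KRT8, KRT18, EPCAM and CD44) had at least 1 TPM, and 0 of them differed by 1.5-fold. KLK3, an androgen-driven prostate marker, was listed at 0 in both libraries. Of 8 markers of leukocytes, endothelium and fibroblasts, 3 had a mean of 1 TPM or more (CD68, COL1A1 and PECAM1), and CD3E was listed at 0 in both libraries. These 8 summed to 120.5 TPM in the POH1 siRNA library and 80.3 TPM in the control library. CD68 (68.5 and 44.2 TPM) and COL1A1 (47.8 and 30.9 TPM) made up most of that sum and were counted as higher. Both calls were lost after GC adjustment, under the 3 other scalings and with a pseudocount of 5. Their part in any result below was not tested.

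The listed genes were lower or near level in the POH1 siRNA library, apart from NORAD. Differences are log2(TPM + 1) in the POH1 siRNA library less the same in the control library, and genes past 1.5-fold on that scale (a log2 difference of 0.58) are called higher or lower. Of the 10 genes, 3 were counted as lower (TUG1, OIP5-AS1 and H19), 0 as higher, and 7 lay within 1.5-fold. Of all 15008 genes, 8.88% were counted as lower and 10.2% as higher; of the 1704 long noncoding RNA genes, 9.74% were lower and 12.1% higher. The log2 difference was below 0 for 9 of the 10 genes, and for 6 of them after GC adjustment. With that adjustment, explained with NORAD below, the split was 1 higher and 3 lower, against 12.6% higher and 5.19% lower over all genes and 13% and 7.22% over the long noncoding RNA genes. The median of the 10 without it was -0.23, against 0.12 over all genes and 0.06 over the long noncoding RNA genes. With it the median of the 10 was -0.10, against 0.15 over all genes and 0.11 over the long noncoding RNA genes. The members were chosen by name with earlier results of these data known, so these counts describe the 10 genes and are no test of them. H19, at -0.60, lay just past the 1.5-fold line, and NORAD, at 0.57, just short of it.

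**Figure D1:**
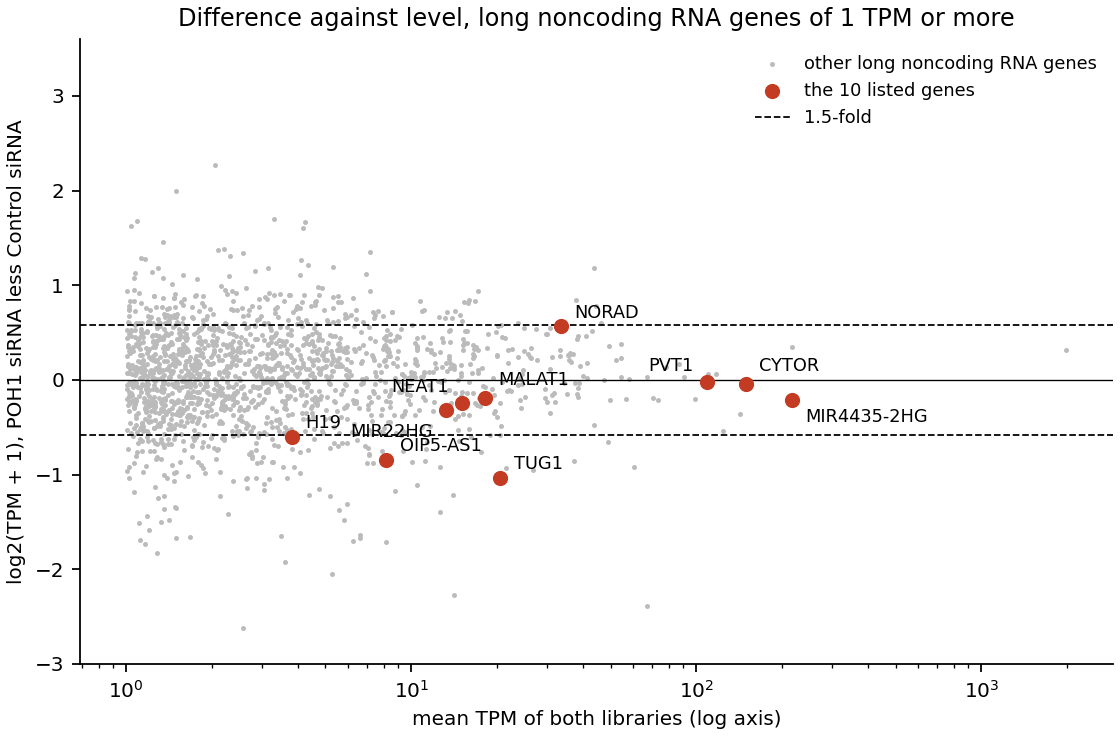
Log2 difference (POH1 siRNA less Control siRNA, on the log2(TPM + 1) scale) against mean TPM of both libraries for long noncoding RNA genes of 1 TPM or more, with the 10 listed genes in red and dashed lines at 1.5-fold. TUG1, OIP5-AS1 and H19 lie below the lower line, and NORAD lies just under the upper one.

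By level the genes formed a high set of 3 and a lower set of 7. MIR4435-2HG was highest, at 201 TPM in the POH1 siRNA library and 233 TPM in the control library, where it ranked 3rd and 2nd among the long noncoding RNA genes. CYTOR was at 146 and 151 TPM and ranked 4th and 5th, and PVT1, at 108 and 110.02 TPM, ranked 9th in both. These 3 genes, the highest of the 10, held 81.4% of the members' summed TPM in the POH1 siRNA library and 80.4% in the control library. The order from there down in the POH1 siRNA library was NORAD, MALAT1, NEAT1, TUG1, MIR22HG, OIP5-AS1 and H19. In the control library it was TUG1, NORAD, MALAT1, NEAT1, MIR22HG, OIP5-AS1 and H19, so TUG1 stood 7th in the POH1 siRNA library and 4th in the control library, and NORAD, MALAT1 and NEAT1 each stood 1 place higher in the POH1 siRNA library. With 1 library each there is no spread, so it cannot be said which neighbours in these orders differ beyond error. All 10 together summed to 560 TPM in the POH1 siRNA library and 616 TPM in the control library. That was 3.80% and 4.38% of the summed TPM of all long noncoding RNA genes.

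**Figure D2:**
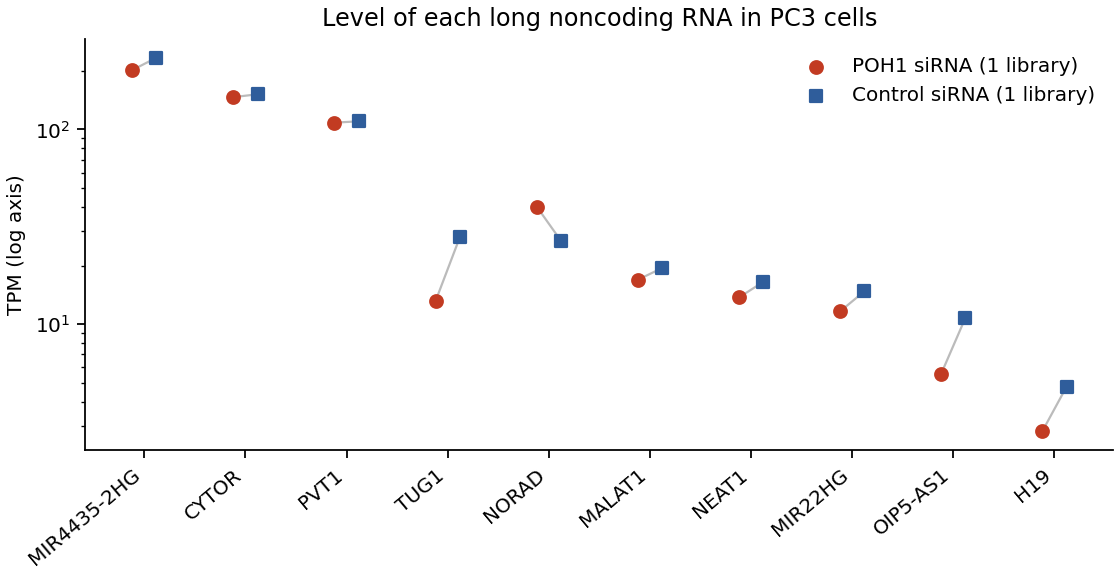
TPM (log axis) of each of the 10 genes in the POH1 siRNA library (red circles) and the Control siRNA library (blue squares), 1 library each, ordered by the level in the control library. MIR4435-2HG, CYTOR and PVT1 stand above 100 TPM in each library, and TUG1 shows the widest gap between the libraries.

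MALAT1 (ENSG00000251562) and NEAT1 (ENSG00000245532), the nuclear body RNAs, are neighbours on chromosome 11, and neither differed by 1.5-fold. MALAT1 was at 16.9 TPM in the POH1 siRNA library and 19.4 TPM in the control library, a log2 difference of -0.19. NEAT1 was at 13.7 and 16.5 TPM, a log2 difference of -0.25. After GC adjustment (explained with NORAD below) MALAT1, which has the lowest GC content of the 10 genes (39.3%), was at 0.24 and NEAT1 at -0.11, so the direction of MALAT1 turned. The ratio of MALAT1 to NEAT1 was 1.23 in the POH1 siRNA library and 1.18 in the control library. MALAT1 ranked 143rd and NEAT1 184th among the long noncoding RNA genes of the POH1 siRNA library (111th and 137th in the control library), under the poly(A) limit given above. The NEAT1 value does not separate its short polyadenylated isoform from the long one that builds paraspeckles. The tRNA-like small RNA cut from the MALAT1 transcript was listed at 0.209 TPM in the POH1 siRNA library and 0 in the control library, and that of NEAT1 at 0 in both. They are 57 and 58 bases long, and TPM of so short a gene rests on few reads.

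The proteins of these nuclear bodies did not move one way. Of 15 paraspeckle proteins, 2 were counted as higher and 3 as lower, with a median log2 difference of 0.14. TAF15, an RNA-binding protein, was at 63.6 TPM in the POH1 siRNA library and 121 TPM in the control library, and HNRNPH3 at 97.3 and 163 TPM. The 2 higher genes were DAZAP1 (151 against 85.9 TPM) and RBM14 (49.9 against 28.4 TPM), which paraspeckles need to form. Of the core proteins that bind NEAT1, named here after their values were seen, SFPQ was lower (101 against 164 TPM), and NONO (291 and 264 TPM) and PSPC1 (66.9 and 84.1 TPM) lay within 1.5-fold. After GC adjustment 4 paraspeckle genes were higher and 1 was lower, with SFPQ at -0.32 and HNRNPH3 at -0.39. Of 15 nuclear speckle proteins, 1 was higher and 1 was lower, with a median of 0.03. SRRM1, a splicing coactivator, was at 86.1 and 37.2 TPM, and SON, which organises the speckle, was at 25.4 and 48.0 TPM. SRSF7 (47.9 and 66.2 TPM) and U2AF2 (242 and 179.7 TPM) lay within 1.5-fold.

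Genes that cut or degrade nuclear RNA were mixed as well. Of 22 genes of RNase P, tRNase Z and nuclear RNA decay, 2 were higher and 3 were lower, with a median of -0.13. RPP21, a protein subunit of RNase P, was at 148 TPM in the POH1 siRNA library and 87.9 TPM in the control library. The lower genes were MTREX (4.58 against 8.33 TPM), the helicase of the nuclear exosome, RBM7 (3.07 against 5.68 TPM), of its targeting complex, and EXOSC3 (3.89 against 6.54 TPM), of its core. All 3 of these calls were lost after GC adjustment (MTREX at -0.30, RBM7 at -0.33 and EXOSC3 at -0.32), and 0 genes of the list were lower with a pseudocount of 5. As a gauge of tail selection, 12 of 13 listed RNAs without a poly(A) tail were found, and 9 of them had a mean of 1 TPM or more. Of these 9, 3 were lower and 0 were higher: RN7SK (18.3 against 43.5 TPM), RMRP (7.56 against 16.8 TPM) and RPPH1 (3.73 against 6.86 TPM), the RNA subunit of RNase P. The histone gene H2AC6 was at 12.8 and 9.30 TPM, within 1.5-fold as reported. After GC adjustment H2AC6 was at 0.78 and counted as higher, so 1 gene of this list was higher and 3 were lower. The 12 found summed to 1051 TPM in the POH1 siRNA library and 1276 TPM in the control library, and RN7SL1 (445 and 531 TPM) and RN7SL2 (511 and 626 TPM), both within 1.5-fold, made up most of it. Whether MALAT1 and NEAT1 levels carry the same shift was not tested.

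NORAD (ENSG00000260032), the Pumilio decoy, was the only listed gene with a log2 difference above 0 as reported; after GC adjustment MALAT1, CYTOR and PVT1 were above 0 too. It was at 40.2 TPM in the POH1 siRNA library and 26.8 TPM in the control library, a log2 difference of 0.57. Its rank among the long noncoding RNA genes was 41st in the POH1 siRNA library and 70th in the control library. The transcripts of NORAD have a low GC content (41.6%), and in these libraries genes of that GC content tended to be lower, with a running median of -0.21. Adjusted for GC content (the running median at its GC content subtracted and the overall median added back), NORAD was at 0.92 and counted as higher. PUM2, a Pumilio protein that NORAD binds, singled out with its values known, lay within 1.5-fold (5.25 and 7.82 TPM). EPB41L1, a cytoskeletal gene beside NORAD, was higher as well (76.3 against 39.4 TPM). Of the distinct 50-base runs of NORAD, 35.3% also occur in transcripts of other genes, on either strand. OVCH1-AS1, LINC02211, HCG11 and LINC02228, each with at least 1% of the runs, were listed at 0 in both libraries. AL391294.1 (7.39% of the runs) and AC099499.2 (3.08%) share runs as well but are not among the genes of the deposited table. No level of theirs can be given, and how reads that fit them were counted is unknown.

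TUG1 (ENSG00000253352) differed the most. It was first found as a taurine-induced RNA and is known to bind the Polycomb complex that silences chromatin. It was at 13.1 TPM in the POH1 siRNA library and 27.9 TPM in the control library, 2.13-fold lower by the ratio of TPM. On the log2(TPM + 1) scale it differed by -1.03, which is 2.05-fold. It was the only 1 of the 10 to reach 2-fold lower, as 2.93% of all genes and 3.17% of the long noncoding RNA genes did. At 2-fold higher there were 0 of the 10, against 2.15% of all genes and 1.88% of the long noncoding RNA genes. In the control library TUG1 and NORAD stood near each other (NORAD over TUG1, 0.961), while in the POH1 siRNA library NORAD was 3.06 times TUG1. TUG1 also has GC-poor transcripts (41.8%), and its difference was -0.67 after GC adjustment, still counted as lower. The 2 small antisense genes over its exons, AC004542.2 (0.213 and 1.16 TPM) and AC004542.1 (0.211 and 0.808 TPM), were near or below 1 TPM; where strand was not used, their reads cannot be told from those of TUG1.

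TUG1 starts beside MORC2, a chromatin gene read in the other direction, so the start region of TUG1 is shown to place the pair. The RefSeq start sites (GRCh38.p14) lie 491 bases apart. MORC2 was at 26.7 TPM in the POH1 siRNA library and 26.5 TPM in the control library, so the lower level of TUG1 was not seen in the gene across this promoter. The 300 bases around the start of TUG1, chr22:30969015-30969314 on the plus strand, run from 250 bases before the start to 50 from it. Capitals mark the 10 bases that also belong to the window of MORC2.
TUG1 promoter: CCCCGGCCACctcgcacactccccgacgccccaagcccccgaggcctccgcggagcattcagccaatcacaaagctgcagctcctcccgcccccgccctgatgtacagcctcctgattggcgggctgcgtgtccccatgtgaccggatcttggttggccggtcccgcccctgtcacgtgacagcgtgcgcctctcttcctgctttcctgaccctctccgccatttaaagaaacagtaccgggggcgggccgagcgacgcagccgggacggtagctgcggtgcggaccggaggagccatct

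The proteins listed as partners of TUG1, NORAD and OIP5-AS1 were mixed: of 9, 3 were higher and 1 was lower, with a median of 0.22. Under each of the 3 other scalings tried 0 were higher and 2 lower, and after GC adjustment 3 were higher and 0 lower. EZH2, the methyltransferase of the Polycomb complex, was at 17.7 TPM in the POH1 siRNA library and 28.4 TPM in the control library. Its partner EED (6.15 against 3.72 TPM) was among the higher genes. Of the other neighbour of TUG1, SMTN, the levels were 136 and 108 TPM.

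OIP5-AS1 (ENSG00000247556), the human counterpart of the zebrafish RNA cyrano, is known to bind the RNA-stabilising protein HuR (ELAVL1) and miR-7. It was at 5.57 TPM in the POH1 siRNA library and 10.8 TPM in the control library, 1.94-fold lower by the ratio of TPM. On the log2(TPM + 1) scale it differed by -0.84, which is 1.80-fold. After GC adjustment it was at -0.68. It is read against OIP5, a gene of centromere assembly, and the pair shares 470 exon bases on opposite strands. OIP5 was at 11.1 and 14.5 TPM, and the sum of both genes differed by -0.58, just short of 1.5-fold. That sum takes in all of OIP5, while the shared bases are 470 of the 12673 exon bases of OIP5-AS1. It therefore does not show how far the split of the shared reads affects the call. CHP1 (34.01 and 39.96 TPM) and NUSAP1 (53.0 and 50.1 TPM) nearby lay within 1.5-fold.

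**Figure D3:**
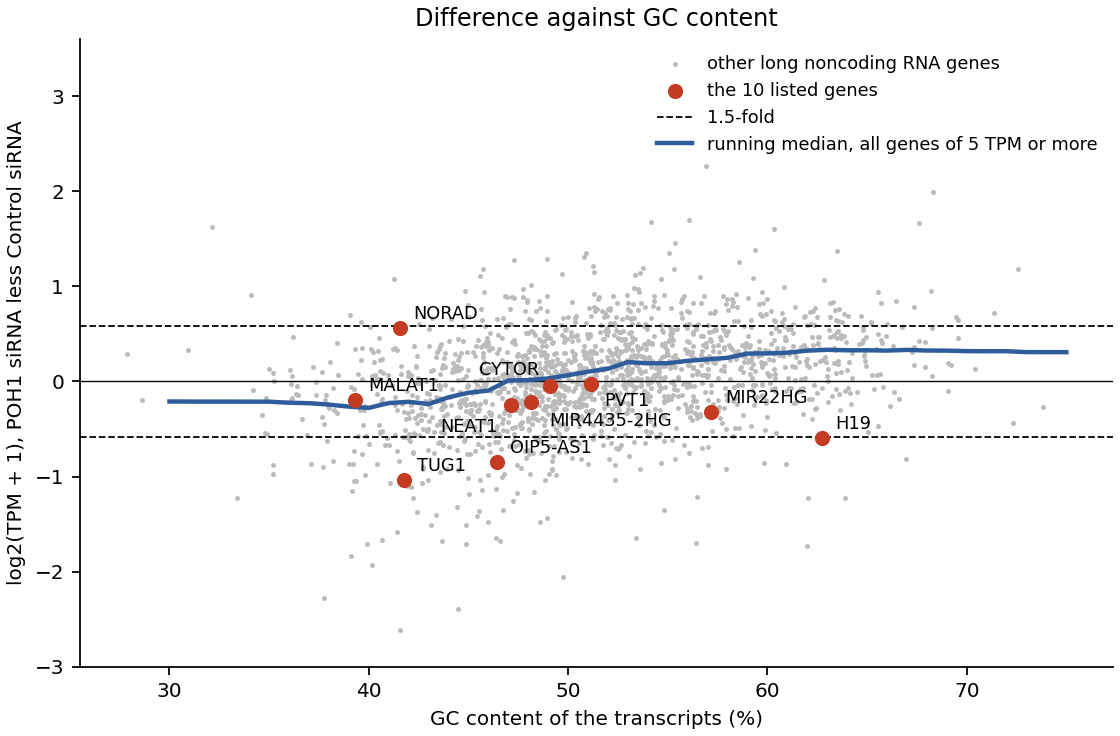
Log2 difference (POH1 siRNA less Control siRNA) against the GC content of the transcripts in percent, for long noncoding RNA genes of 1 TPM or more (grey) and the 10 listed genes (red), with the running median over all genes of 5 TPM or more (blue) and dashed lines at 1.5-fold. NORAD and TUG1 have nearly the same GC content (41.6% and 41.8%) and lie on opposite sides of the blue line.

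MIR22HG and H19 carry a microRNA in an exon and were among the less abundant of the 10 genes. An exonic microRNA gene is not particular to them: NEAT1 (MIR612), PVT1 (MIR1204) and CYTOR (MIR4435-1) each overlap one on the same strand. MIR22HG (ENSG00000186594), the host of miR-22, was at 11.6 TPM in the POH1 siRNA library and 14.8 TPM in the control library, a log2 difference of -0.32 that lay within 1.5-fold. H19 (ENSG00000130600), the imprinted fetal RNA that hosts miR-675, was the lowest of the 10 genes, at 2.82 and 4.78 TPM, a log2 difference of -0.60 that counted as lower. Both have GC-rich transcripts (57.2% and 62.7%), and after GC adjustment MIR22HG was at -0.40 and H19 at -0.79.
The table also lists the hairpin of miR-22 as a gene of its own, which shares its 85 bases with an exon of MIR22HG, and its values ran the other way, at 35.9 and 16.0 TPM. The TPM sum of MIR22HG and this far shorter hairpin was 0.61 higher on the log2 scale. TPM is per length, and the hairpin has 85 bases against 2986 exon bases in MIR22HG. The sum therefore gives reads over the hairpin far more weight than they would have within MIR22HG. It does not show which way MIR22HG would differ with those reads counted to it. Neither the MIR22HG value nor the hairpin value measures mature miR-22. The miR-675 hairpin was at 0.235 and 0.245 TPM.

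MIR22HG starts across from WDR81, an endosome gene, on the other strand. The RefSeq start sites (GRCh38.p14) lie 313 bases apart and the windows around them share 188 bases. WDR81 was counted as higher, at 12.5 TPM in the POH1 siRNA library and 7.09 TPM in the control library, while MIR22HG was at -0.32. The shared bases are in capitals in the window of MIR22HG, chr17:1716161-1716460, read on the minus strand.
MIR22HG promoter: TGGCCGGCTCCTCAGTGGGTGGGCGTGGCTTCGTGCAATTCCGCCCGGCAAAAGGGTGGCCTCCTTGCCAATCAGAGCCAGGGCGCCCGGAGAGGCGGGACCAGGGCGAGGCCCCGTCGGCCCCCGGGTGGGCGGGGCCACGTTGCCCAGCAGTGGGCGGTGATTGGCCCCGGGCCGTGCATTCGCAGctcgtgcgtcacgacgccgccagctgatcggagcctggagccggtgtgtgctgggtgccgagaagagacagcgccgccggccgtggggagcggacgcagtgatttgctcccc

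IGF2, the growth factor gene imprinted in the opposite way to H19, was at 8.68 TPM in the POH1 siRNA library and 5.76 TPM in the control library, a log2 difference of 0.52 that lay within 1.5-fold. MRPL23, farther along, was at 154 and 178 TPM. Of 9 genes of microRNA processing, 2 were higher and 0 were lower, with a median of 0.15. The higher ones were the Argonaute genes AGO3 (6.73 against 2.32 TPM) and AGO2 (25.3 against 14.6 TPM), whose proteins carry the mature microRNA. XPO5, which exports the precursor, was at 31.3 and 45.6 TPM and AGO4 at 3.16 and 4.39 TPM, both within 1.5-fold. Under each of the 3 other scalings 1 gene of this list was lower.

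The 3 most abundant genes differed the least by ratio together with MALAT1. PVT1 (ENSG00000249859), the neighbour of MYC that is often amplified with it in cancer, was at 108 TPM in the POH1 siRNA library and 110.02 TPM in the control library, a log2 difference of -0.02. MYC itself was counted as higher, at 9.38 and 4.69 TPM, so the pair did not move together. CYTOR (ENSG00000222041), a cytoskeleton-linked RNA raised in many carcinomas, was at 146 and 151 TPM, a log2 difference of -0.05. MIR4435-2HG (ENSG00000172965) was at 201 and 233 TPM, a log2 difference of -0.21. As the sequences above show, reads can fit both copies: 16.0% of the distinct 50-base runs of CYTOR occur in MIR4435-2HG, and 21.6% of those of MIR4435-2HG in CYTOR. The sum of the pair was 348 TPM in the POH1 siRNA library and 385 TPM in the control library. The ratio of MIR4435-2HG to CYTOR was 1.37 and 1.54, and this split is uncertain.

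MIR4435-2HG is read against BCL2L11, the gene of the cell death protein BIM, with 727 shared exon bases on opposite strands. In mouse myeloid cells the counterpart of MIR4435-2HG, Morrbid, is known to repress the BIM gene. BCL2L11 was at 5.08 TPM in the POH1 siRNA library and 1.48 TPM in the control library, against the small difference of MIR4435-2HG, and where strand was not used its value can include reads of the far more abundant RNA.

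Over all neighbouring genes listed, 16 of 17 were found and 14 had a mean of 1 TPM or more. Of these, 5 were counted as higher and 0 as lower, with a median of 0.32: BCL2L11, EPB41L1, FRMD8 (24.2 against 12.5 TPM, beside NEAT1), MYC and WDR81. For this list and the others, the shares over all genes were 10.2% higher and 8.88% lower. After GC adjustment those shares were 12.6% and 5.19%. LTBP3 (311 and 251 TPM), near MALAT1, lay within 1.5-fold. The median GC content of the neighbours was 59.2%, a range in which the running median of all genes lay above 0, and after GC adjustment 4 of them were higher. Over all the context lists 17 genes were higher and 14 lower, against 11 higher and 18 lower when the libraries were scaled to a median log2 ratio of 0, and 17 and 6 after GC adjustment.

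**Figure D4:**
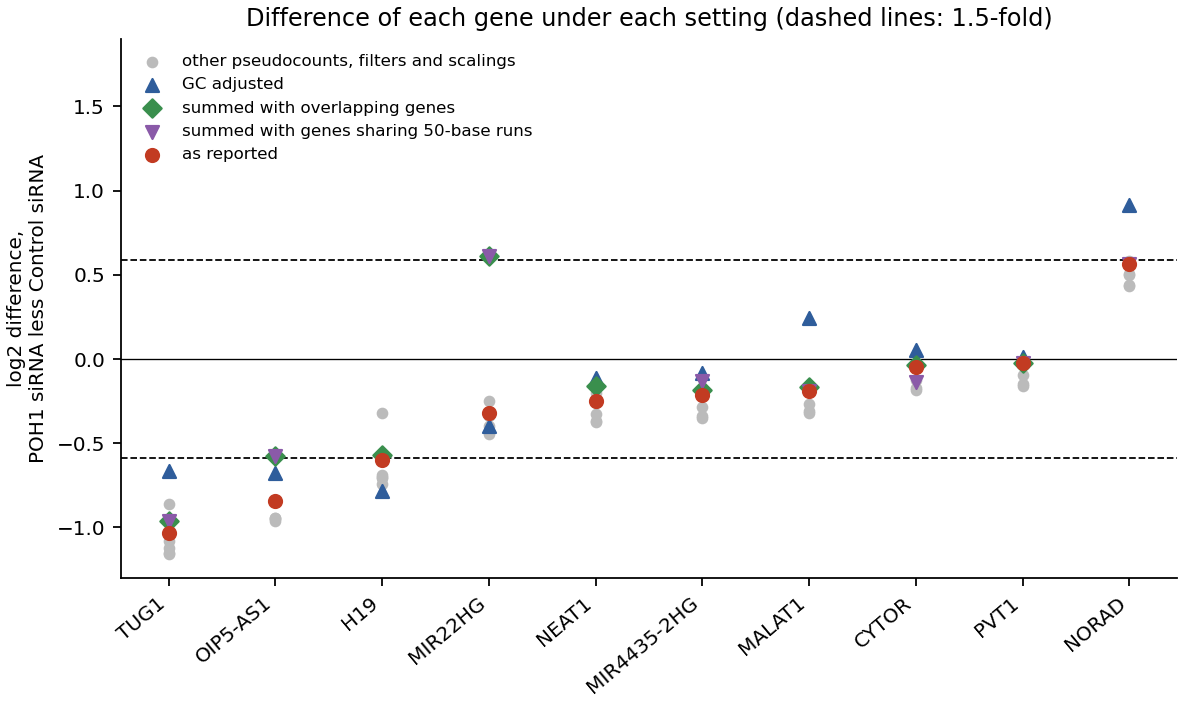
Log2 difference (POH1 siRNA less Control siRNA) of each of the 10 genes under each setting: as reported (red circles), GC adjusted (blue triangles), summed with overlapping genes (green diamonds), summed with genes that share 50-base runs (purple triangles) and under other pseudocounts, filters and scalings (grey), with dashed lines at 1.5-fold. TUG1 stays below the lower line under each setting tried, and MIR22HG changes sign where the miR-22 hairpin is added.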

How the data were processed

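The authors deposited TPM values per Ensembl gene for 2 libraries of PC3 cells. The submitters' processing notes name CASAVA, HISAT2 and build hg19; for versions, annotation, quantifier and use of strand, the entry is not given in the sources used here. Trizol extraction and an mRNA library kit are stated per the labels' protocols. The columns summed to 999968 TPM (POH1 siRNA) and 999955 TPM (Control siRNA).

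The members and the gene lists were chosen with earlier results of these data known. Symbols came from a name table that matched 57392 identifiers. Gene types, exon overlaps, GC content (median over transcripts), 50-base runs and transcript sequences came from GENCODE 29 (GRCh38), and microRNA and promoter sequences from RefSeq, which held a promoter for 8 members. Differences used a pseudocount of 1 and a filter at a mean of 1 TPM. The GC trend was a running median over 501 genes of 5 TPM or more; it was subtracted and the overall median added back. Named were all members, PSMD14, neighbouring and overlapping genes, and up to 4 genes per list with the largest difference. Some genes under this rule are not reported here. Calculations (Python 3.11.15, pandas 2.3.3, numpy 2.4.6, Biopython 1.88, matplotlib 3.10.9) were tested on simulated data.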

Additional observations from a re-analysis of the deposited data

How the results depend on the processing

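Of 96 values of single members under alternatives, 88 kept their side of the 1.5-fold line. TUG1 kept its call under all 10 alternatives (-1.16 to -0.67). With a pseudocount of 5, which shrinks low genes, H19 was at -0.32 and OIP5-AS1 at -0.58, so 1 member was counted as lower; at 2-fold it was also 1. Summing with overlapping genes put H19 at -0.57, OIP5-AS1 at -0.58 and MIR22HG at 0.61, and the sum over genes that share 50-base runs, chosen after seeing the data, gave the same -0.58 and 0.61. With GC adjustment NORAD was at 0.92, so 1 member was higher, and MALAT1 (0.24), CYTOR (0.06) and PVT1 (0.01) were above 0; the cause was not tested. The filter at 5 TPM leaves H19 out. Scaling to a median ratio of 1 shifts all log2 ratios by 0.14. Counted over the context lists, 17 genes were higher and 14 lower as reported; 11 were higher under each of the 3 other scalings (17 to 19 lower), 9 higher and 7 lower with a pseudocount of 5, and 6 lower with GC adjustment. By level, 3 members were in the top 10% of all genes in each library, and among long noncoding RNA genes 5 were in the POH1 siRNA library and 8 in the control library. No paired analysis was possible because each group holds 1 library. Depth is unknown, so the counting error of low genes such as H19 cannot be given.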

Other observations

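Among 33 other cancer-associated long noncoding RNAs, 31 were found and 19 had a mean of 1 TPM or more; of these 3 were lower, 0 were higher and 16 lay within 1.5-fold, with a median log2 difference of 0.07. EPB41L4A-AS1, which hosts a small nucleolar RNA, was at 2.59 TPM in the POH1 siRNA library and 9.01 TPM in the control library. LUCAT1 was at 0.827 and 1.82 TPM and DLEU1 at 2.35 and 4.15 TPM, while MIR100HG, at 7.42 and 11.2 TPM, lay within 1.5-fold. After GC adjustment 1 of the 19 was lower and 1 was higher (LINC-PINT, at 0.61, named after its values were seen), and LUCAT1 (-0.37) and DLEU1 (-0.50) lay within 1.5-fold.

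Of 12 long noncoding RNAs named in prostate cancer, 4 averaged at least 1 TPM, and 0 of them differed by 1.5-fold. PCAT6 was at 17.6 TPM in the POH1 siRNA library and 18.6 TPM in the control library, CBR3-AS1 at 9.53 and 9.06 TPM, PCAT7 at 4.16 and 4.23 TPM and SCHLAP1 at 1.34 and 1.33 TPM. PCA3, the urine marker of prostate cancer, singled out with its values known, was listed at 0 in both libraries.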
